A study of Mus musculus with 3 samples.

Results

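Cells sense oxygen through the hypoxia-inducible factor (HIF) pathway, and 10 of its genes are described here in the mouse midbrain. The genes were taken from the deposited tables by symbol: the HIF subunits Hif1a, Epas1, Hif3a and Arnt, the oxygen-sensing prolyl hydroxylases Egln1, Egln2 and Egln3, the ubiquitin ligase component Vhl, and the target genes Vegfa and Bnip3. All 10 were found among 49585 listed genes, each in 1 row, and all 10 passed the filter on low counts. The series held 2 libraries labelled FGR and 1 wild-type (WT) library. The mice were C57BL/6, 3 days old, and each library was made from total RNA of flash-frozen midbrain. FGR is given in the labels as a genotype and is not spelled out there, so it is used as given. The labels do not say whether a library came from 1 animal or a pool, or whether the FGR libraries came from different litters.

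HIF is a dimer of an oxygen-regulated alpha subunit and the stable partner ARNT. With oxygen present, the EGLN enzymes hydroxylate the alpha subunit, VHL then binds it, and it is degraded by the proteasome. When oxygen is low the alpha subunit persists and the dimer binds DNA at a short motif, turning on genes of blood vessel growth, glycolysis and mitochondrial turnover. The control of HIF1A and EPAS1 by oxygen acts mainly on the protein, so the level of their mRNA is not a measure of oxygen.

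Promoter sequence of target genes is shown first, because the results turn on Vegfa, whose level differed between the groups, and Bnip3 and Egln3, whose levels were not called. The windows are from RefSeq on GRCm38.p6 and run from 250 bases before the annotated start to 50 after it, 5′ to 3′ on the gene's strand. No source used here names the build behind the deposited counts, and these windows were matched by symbol alone. Capitals mark ACGTG, the core to which HIF binds, or its reverse complement. The Vegfa window is chr17:46032328-46032627, the Bnip3 window chr7:138909457-138909756 and the Egln3 window chr12:54203825-54204124, each on the minus strand.
Vegfa: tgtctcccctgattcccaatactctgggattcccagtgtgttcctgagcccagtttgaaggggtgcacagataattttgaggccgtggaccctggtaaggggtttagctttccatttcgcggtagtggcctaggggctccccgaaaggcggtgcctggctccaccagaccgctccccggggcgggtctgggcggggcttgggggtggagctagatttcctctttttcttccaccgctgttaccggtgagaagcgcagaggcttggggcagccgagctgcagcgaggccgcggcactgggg
Bnip3: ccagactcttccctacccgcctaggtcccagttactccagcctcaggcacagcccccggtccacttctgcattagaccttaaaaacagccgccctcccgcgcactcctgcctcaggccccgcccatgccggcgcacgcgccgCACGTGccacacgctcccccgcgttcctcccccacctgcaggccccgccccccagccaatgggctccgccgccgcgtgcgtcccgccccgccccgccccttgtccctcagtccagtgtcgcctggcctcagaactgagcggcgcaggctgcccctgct
Egln3: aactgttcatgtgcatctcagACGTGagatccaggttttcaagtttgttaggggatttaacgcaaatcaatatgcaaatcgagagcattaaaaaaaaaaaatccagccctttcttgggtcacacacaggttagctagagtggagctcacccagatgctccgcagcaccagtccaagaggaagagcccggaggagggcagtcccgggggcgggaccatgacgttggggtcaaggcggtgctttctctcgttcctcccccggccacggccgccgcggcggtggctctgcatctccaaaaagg
The Bnip3 window held ACGTG on both strands in 1 overlapping CACGTG that begins 108 bases before the start, and the Egln3 window held it 229 bases before the start. The window at the upstream Vegfa start held no ACGTG on either strand, and sequence outside the windows was not searched. At a second annotated start inside the Vegfa gene, on the minus strand at chr17:46025114-46025413, the window held ACGTG on the opposite strand 211 bases before that start. RefSeq windows were matched for 9 of the 10 genes (all but Epas1), 11 windows in all, and 6 of the 11 held ACGTG on either strand, against 19.6% of 32851 windows of the same length. GCGTG, the other form of the core, was held by 7 of the 11, against 32.4% of the 32851. The 11 windows had a median of 62.7% G and C and 19 CpG dinucleotides, against 52.7% and 7 over the 32851, and their part in the motif counts was not tested. A match of letters does not show that a factor binds there.

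The deposited counts summed to 58444481 in FGR replicate 1, 46240262 in FGR replicate 2 and 52874311 in WT. The FGR libraries differed from each other by more than counting noise (chi-square per degree of freedom 10.5). All 8 of a list of midbrain genes (En1, En2, Otx2, Pou4f1, Th, Slc6a3, Foxa2 and Lmx1b, chosen after the counts had been seen) had at least 10 counts in every library. The smallest count was 205, and a list chosen this way cannot test whether the dissections were alike. Lists of regional genes differed between the groups. The summed level of 8 hypothalamus and ventral forebrain genes was 1.67 and 1.90 counts per 1000000 counted reads (CPM) in the FGR libraries and 40.2 CPM in WT. That of 8 hindbrain genes was 44.8 and 38.1 CPM in the FGR libraries and 3.77 CPM in WT. Nkx2-4, Dlx5 and Dlx6 of the first list and Hoxb2 and Hoxa3 of the second were at 0 in at least 1 library. With 1 WT library, a difference in dissection, litter or preparation of that library cannot be told apart from the group, and the part of these regional differences in the results below was not tested. In bulk tissue, fewer cells of a type and less RNA per cell cannot be told apart either.

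Of the 10 genes, 1 was called different in FGR midbrain, Vegfa, which was lower. None of the other 9 was called. Their fitted folds of FGR over WT were 1.54 for Hif3a, 1.14 for Egln1, 1.11 for Hif1a, 1.08 for Arnt, 1.00 for Bnip3, 0.976 for Egln2, 0.970 for Vhl, 0.911 for Egln3 and 0.886 for Epas1. Calls are at an adjusted p under 0.05 in edgeR's quasi-likelihood test of FGR against WT over 25561 genes, of which 4.25% were called, 1.66% higher and 2.59% lower in FGR. With 10 genes, 1 call is the smallest count above 0, so it is a result about Vegfa and not about the list. At an unadjusted edgeR p under 0.05 there were 4 of the 10 (Vegfa, Hif3a, Egln1 and Hif1a), against 4685 of the 25561. The median log2 fold change was -0.01 over the 10 genes and 0.01 over all genes tested. Both FGR libraries lay above WT for 4 of the 10 and below it for 4, and WT lay between them for the other 2. The spread in the test came from the FGR pair alone, so the WT library was assumed to vary like that pair. CPM values are scaled by the trimmed mean of M-values (TMM), and SD is over n = 2 FGR libraries.

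**Figure D1:**
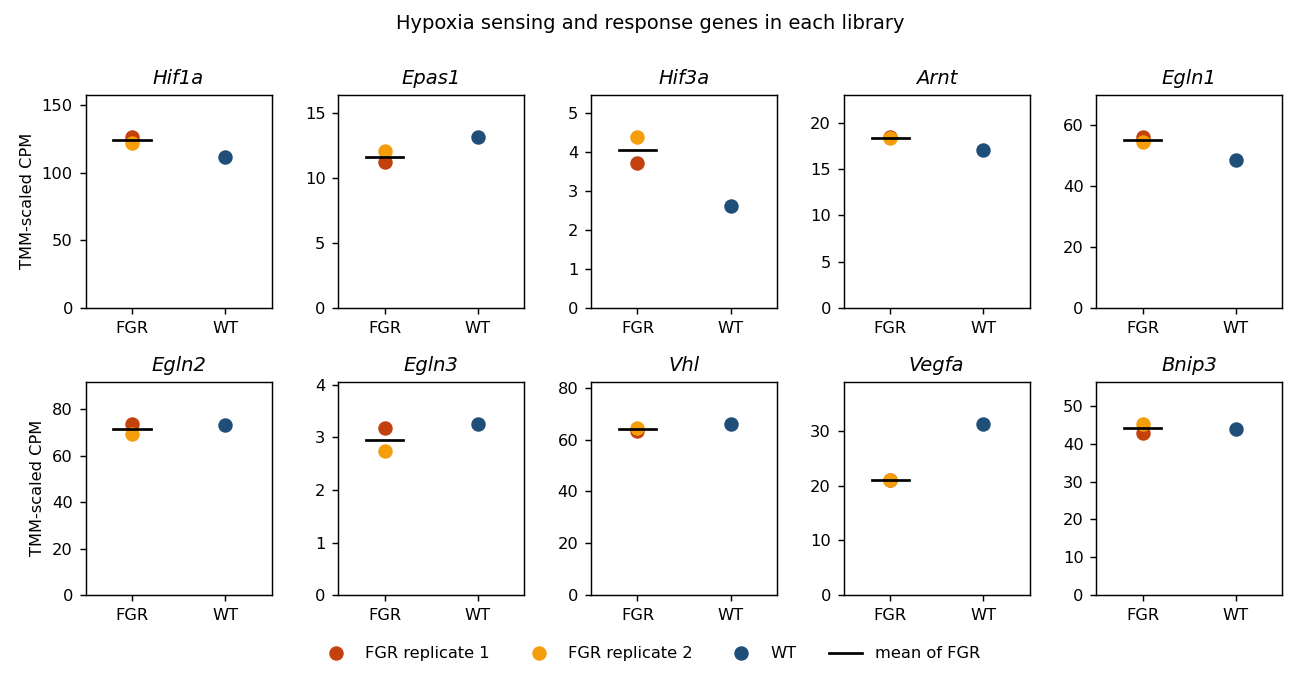
TMM-scaled CPM (vertical axes, each from 0) of the 10 genes in the FGR and WT libraries. Points are libraries and the bar is the mean of the FGR libraries. Vegfa is at 21.1 and 21.0 CPM in the FGR libraries and 31.2 CPM in WT, while for Bnip3 and Egln2 the WT point lies between the FGR points.

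The HIF subunits come first. Hif1a, which encodes the widely expressed alpha subunit HIF-1 alpha (ENSMUSG00000021109.13), was at 126 and 122 CPM in the FGR libraries and 111 CPM in WT. Both FGR libraries lay above WT. The log2 fold change was 0.15 ± 0.07 (SE) and was not called (edgeR adjusted p = 0.248). Each FGR library's ratio to WT stood clear of 1 by counting error alone, at 1.13 in replicate 1 (95% interval 1.09 to 1.17) and 1.09 in replicate 2 (1.06 to 1.14). These intervals are exact binomial, cover counting error only and say nothing of the spread between animals. For each gene, the ratios of both FGR libraries share the 1 WT library, so they are not independent of each other. The annotated antisense gene Gm15283 overlaps exons of Hif1a in GENCODE M21 and had 742 and 569 counts in the FGR libraries and 599 in WT, against 7310, 5571 and 5993 for Hif1a. No source used here says that counting was by strand, so reads of Hif1a and Gm15283 cannot be told apart. Gm49321, annotated as protein-coding on the same strand, also overlaps exons of Hif1a and is not listed by that symbol in the counts.

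Epas1 encodes HIF-2 alpha, the alpha subunit best known from endothelial cells (ENSMUSG00000024140.9). It was at 11.2 and 12.1 CPM in the FGR libraries and 13.1 CPM in WT. Both FGR libraries lay below WT. The log2 fold change was -0.17 ± 0.14 and was not called (edgeR adjusted p = 0.556). The interval of 2 SE on each side ran from -0.45 to 0.10. Replicate 1 lay below WT by more than counting error (ratio 0.855, 95% counting interval 0.767 to 0.952), and replicate 2 did not (0.919, 0.821 to 1.03). Per kilobase of listed length, Hif1a exceeded Epas1 10.1-fold and 9.09-fold in the FGR libraries and 7.63-fold in WT.

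Hif3a encodes HIF-3 alpha, whose short splice forms oppose the other alpha subunits (ENSMUSG00000004328.15). It had the fewest CPM per kilobase of the 10 genes and the largest fold change upward. It was at 3.72 and 4.38 CPM (216 and 200 counts) in the FGR libraries and 2.62 CPM (141 counts) in WT. Both FGR libraries lay above WT, with ratios of 1.42 (95% counting interval 1.14 to 1.77) and 1.67 (1.34 to 2.09). The log2 fold change of 0.62 ± 0.20 was not called (edgeR adjusted p = 0.102, unadjusted p = 0.00794). Without a filter on low counts it was called (adjusted p = 0.0447), and in DESeq2 the adjusted p was 0.634. The deposited counts are per gene, so the splice forms cannot be separated.

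Arnt, the shared beta subunit (ENSMUSG00000015522.18), was at 18.4 CPM in each FGR library and 17.1 CPM in WT. The difference, 0.11 ± 0.12 as log2 fold change, was not called (edgeR adjusted p = 0.705). Its paralog Arnt2, which stands in for ARNT in neurons and was added to the text once its values were known, was at 298 and 283 CPM in the FGR libraries and 249 CPM in WT (adjusted p = 0.172). Per kilobase, Arnt2 exceeded Arnt 16.9-fold and 16.0-fold in the FGR libraries and 15.2-fold in WT. Arnt2 was the more abundant of the pair in each of the 3 libraries.

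**Figure D2:**
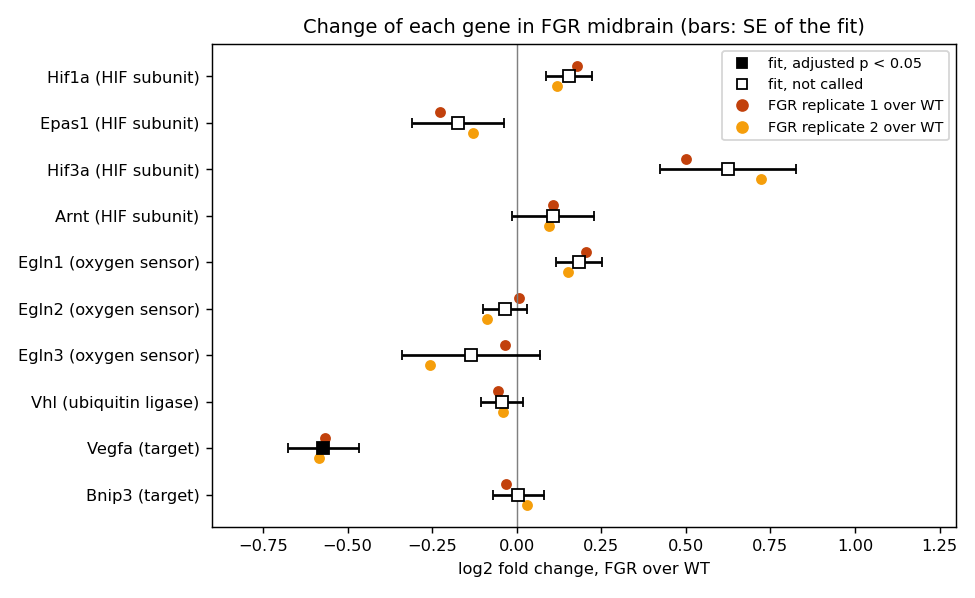
Log2 fold change of FGR over WT (horizontal axis) for the 10 genes. Squares are the edgeR fit with its SE, filled where the adjusted p was under 0.05, and circles are each FGR library over WT. Vegfa at -0.57 is the filled square, and Hif3a at 0.62 has the widest gap from 0 among the open ones.

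Among the oxygen sensors, Egln1 encodes PHD2, the main hydroxylase that sets HIF-1 alpha levels in normal oxygen (ENSMUSG00000031987.6). It was at 55.9 and 54.2 CPM in the FGR libraries and 48.5 CPM in WT, and both FGR libraries lay above WT. The log2 fold change was 0.18 ± 0.07 and was not called (edgeR adjusted p = 0.160, unadjusted p = 0.0180). Egln1 is itself a HIF target in many cell types. Its ratios to WT were 1.15 (95% counting interval 1.09 to 1.21) in FGR replicate 1 and 1.12 (1.06 to 1.18) in FGR replicate 2.

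Egln2 encodes PHD1 (ENSMUSG00000058709.11) and was at 73.6 and 69.4 CPM in the FGR libraries and 73.3 CPM in WT. WT lay between the FGR libraries. Its log2 fold change was -0.04 ± 0.06 (edgeR adjusted p = 0.837), and the interval of 2 SE on each side ran from -0.17 to 0.09. Cyp2t4, on the opposite strand, overlaps exons of Egln2 in GENCODE M21 and had 253 and 246 counts in the FGR libraries and 224 in WT, against 4267, 3171 and 3943 for Egln2. As for Hif1a, reads of these overlapping genes cannot be told apart where they overlap.

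Egln3 encodes PHD3, the hydroxylase most strongly induced by HIF in many cell types (ENSMUSG00000035105.5). It was at 3.17 and 2.73 CPM (184 and 125 counts) in the FGR libraries and 3.25 CPM (175 counts) in WT. Both FGR libraries lay below WT by less than counting error. The ratios were 0.976 (95% counting interval 0.789 to 1.21) in replicate 1 and 0.841 (0.663 to 1.06) in replicate 2. On the log2 scale the fold change was -0.13 ± 0.20 (edgeR adjusted p = 0.790), with an interval of 2 SE on each side from -0.54 to 0.27. Hif3a, whose SE was also 0.20, was not called at a log2 fold change of 0.62. A change of Egln3 beyond its interval could thus also go uncalled at this depth.

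Vhl, the substrate-binding component of the ubiquitin ligase that recognises hydroxylated HIF alpha (ENSMUSG00000033933.13), was at 63.5 and 64.5 CPM in the FGR libraries and 65.9 CPM in WT. The FGR libraries lay below WT by less than counting error, with intervals of the ratio from 0.919 to 1.01 and from 0.931 to 1.03. FGR over WT was -0.04 ± 0.06 on the log2 scale (edgeR adjusted p = 0.780), and 2 SE on each side ran from -0.17 to 0.08.

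Vegfa encodes vascular endothelial growth factor A, the ligand that drives sprouting of blood vessels into the developing brain (ENSMUSG00000023951.17). It had 1223 and 959 counts in the FGR libraries and 1682 in WT. Scaled, these were 21.1 and 21.0 CPM (21.0 ± 0.0744) in the FGR libraries and 31.2 CPM in WT. The FGR libraries lay together and well below WT, with ratios of 0.675 (95% counting interval 0.626 to 0.727) and 0.671 (0.620 to 0.727). Vegfa fell 1.49-fold in FGR midbrain, a log2 fold change of -0.57 ± 0.10 (edgeR adjusted p = 0.00700). The adjusted p ranged from 3.00e-05 to 0.0416 over the 8 alternatives with a test, each of which called Vegfa lower.

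Some cell type markers were also lower in FGR. Astrocytes, a known source of VEGF-A around vessels of the newborn brain, were followed with 8 genes. Of these 4 fell and 0 rose (Gfap and Aqp4 had the smallest p-values), and none was at 0 in any library. The astrocyte calls dropped to 2 in DESeq2, under a stricter filter on low counts and with robust dispersion, where Gfap lost its call (adjusted p = 0.130). Their summed level was 832 and 945 CPM in the FGR libraries and 1084 CPM in WT. Of 8 oligodendrocyte lineage genes 2 fell, Olig1 and Pdgfra (Pdgfra also stands in the fibroblast list), none was at 0, and the sum was 321 and 337 CPM in the FGR libraries and 400 CPM in WT. Of 8 neuron genes 0 were called by edgeR, DESeq2 or limma-voom (3 had an unadjusted p under 0.05 in edgeR), none was at 0, and the sum was 4967 and 4821 CPM in the FGR libraries and 5146 CPM in WT. The part of these cell types in the lower Vegfa was not tested.

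Bnip3 encodes a mitochondrial outer membrane protein that targets mitochondria for autophagy and is a classic HIF-1 target (ENSMUSG00000078566.8). It was at 42.9 and 45.1 CPM in the FGR libraries and 43.8 CPM in WT, which lay between them. Its log2 fold change was 0.01 ± 0.08 (edgeR adjusted p = 0.981), with 2 SE on each side from -0.15 to 0.16. Its sign turned under 4 alternatives, none of which called it. The antisense gene Gm45507 overlaps exons of Bnip3 in GENCODE M21 and had 870 and 761 counts in the FGR libraries and 811 in WT, against 2489, 2063 and 2360 for Bnip3. As for Hif1a, counting by strand is not stated, so reads of Bnip3 and Gm45507 cannot be told apart where they overlap.

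The genes spanned a wide range of level per length. In the FGR libraries the order was Egln2 (25.5 ± 1.06 CPM per kilobase), Vhl (21.3 ± 0.243), Hif1a (21.0 ± 0.498), Bnip3 (19.4 ± 0.693), Egln1 (15.3 ± 0.327), Vegfa (4.91 ± 0.0174), Arnt (2.30 ± 0.00514), Epas1 (2.19 ± 0.114), Egln3 (1.11 ± 0.116) and Hif3a (0.604 ± 0.0686). In WT, Egln2 was also highest at 26.2 CPM per kilobase and Hif3a lowest at 0.390. Vhl and Hif1a overlapped between the FGR libraries, and Arnt and Epas1 differed by less than the SD of Epas1. WT had Bnip3 (19.4 CPM per kilobase) above Hif1a (18.9) and Epas1 (2.47) above Arnt (2.13), the reverse of the FGR means. Vegfa kept the sixth place in each library, at 4.92 and 4.90 CPM per kilobase in the FGR libraries and 7.29 in WT.

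**Figure D3:**
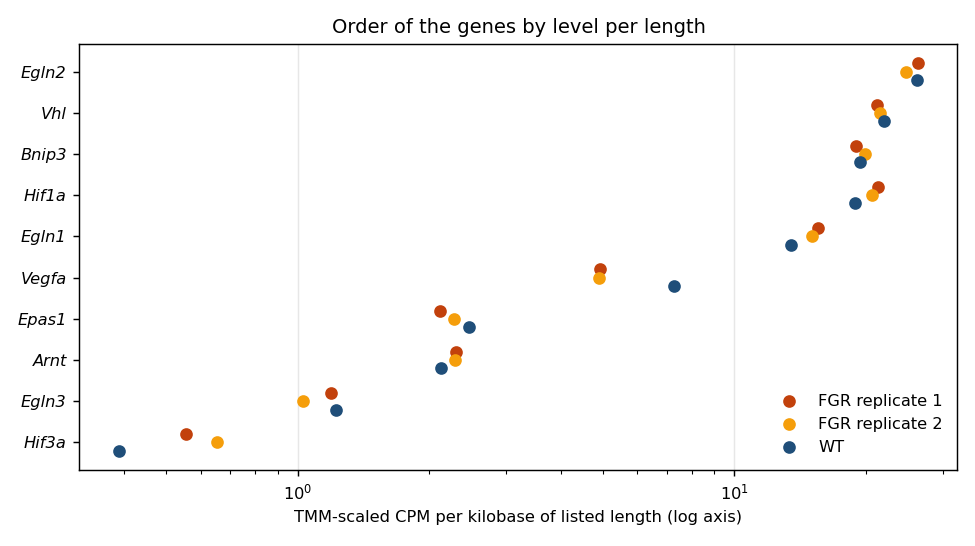
TMM-scaled CPM per kilobase of listed length (log axis) for the 10 genes, ordered by the WT level. Within each row the points are shifted vertically only to keep them apart, with the FGR libraries drawn over the WT library. In WT, Vegfa at 7.29 CPM per kilobase stands between Egln1 at 13.5 and Epas1 at 2.47, the next gene down.

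Further genes of the pathway were followed in 5 lists, by the count called beside 1.66% higher and 2.59% lower over all genes. Of 19 other genes of oxygen sensing and HIF regulation, edgeR called 0, and their log2 fold changes lay between -0.20 and 0.23 with a median of 0.06. The lowest was Kdm6a, singled out once its values were known. Its WT level (45.5 CPM) lay between those of the FGR libraries (47.2 and 32.0 CPM). Of the 19, 3 had an unadjusted edgeR p under 0.05 (Arnt2, Ep300 and Ado), against 4685 of the 25561 genes tested. DESeq2 and limma-voom also called 0. The most abundant per kilobase was the chaperone gene Hsp90aa1, at 940 and 925 CPM in the FGR libraries and 948 CPM in WT. Hif1an, the asparaginyl hydroxylase that blocks HIF transactivation and was likewise added once its values were known, was at 30.4 and 30.9 CPM in the FGR libraries and 31.2 CPM in WT.

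Of 19 genes of glucose uptake and glycolysis that HIF-1 is known to induce, 3 fell and 0 rose, and the median log2 fold change was -0.09. An unadjusted edgeR p under 0.05 was found for 7 of the 19. Pfkl, the liver-type subunit of phosphofructokinase, was at 57.6 and 55.8 CPM in the FGR libraries and 80.1 CPM in WT (edgeR adjusted p = 4.91e-04), 1.41-fold lower. Tpi1, triosephosphate isomerase, fell 1.36-fold (adjusted p = 0.00484). Ldha, which makes the lactate dehydrogenase subunit of anaerobic glycolysis, was at 117 and 124 CPM in the FGR libraries and 153 CPM in WT (adjusted p = 0.0133), a call lost under a stricter filter on low counts (adjusted p = 0.0511). Gapdh, the most abundant per kilobase, was at 551 and 576 CPM in the FGR libraries and 563 CPM in WT, which lay between them.

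Among 31 other HIF targets, 1 rose and 1 fell, with a median of 0.02. An unadjusted edgeR p under 0.05 was found for 14 of the 31. Both FGR libraries lay above WT for 14 of the list and below it for 13. Ccng2, cyclin G2 of cell cycle restraint, rose 1.57-fold, at 42.3 and 40.1 CPM in the FGR libraries and 26.3 CPM in WT (edgeR adjusted p = 9.90e-04). Angptl4, a secreted inhibitor of lipoprotein lipase, fell 1.55-fold, at 10.7 and 12.03 CPM in the FGR libraries and 17.6 CPM in WT (adjusted p = 0.0156), a call that DESeq2 and a stricter filter did not make (adjusted p = 0.0697 and 0.0618). Bnip3l, the paralog of Bnip3 also called NIX and the most abundant per kilobase, was at 108 and 107 CPM in the FGR libraries and 94.2 CPM in WT (adjusted p = 0.134). The classic hypoxia markers Car9 and Adm, singled out once their values were known, were rare. Car9 had 7 and 9 counts in the FGR libraries and 34 in WT, and Adm 18 and 11 counts in the FGR libraries and 40 in WT, and neither was called.

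**Figure D4:**
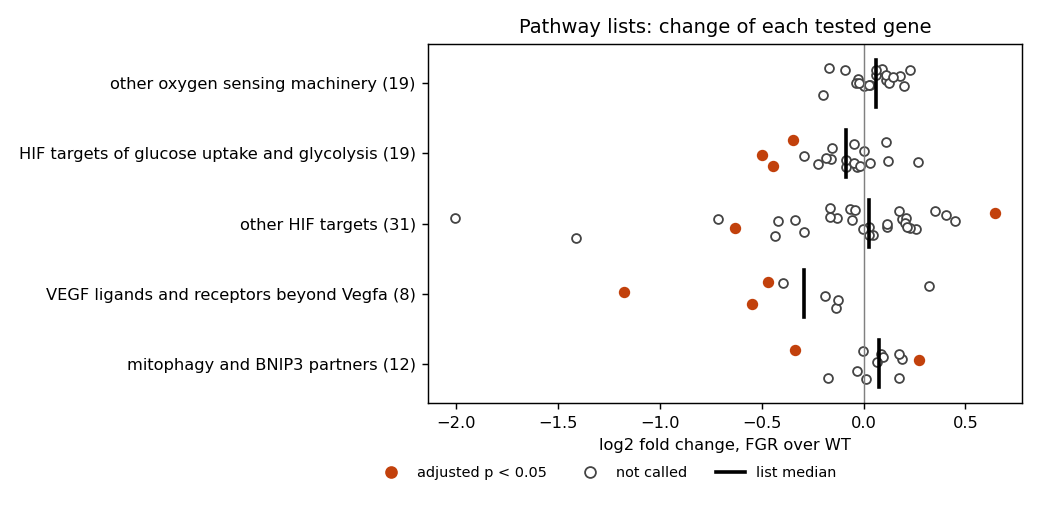
Log2 fold change of FGR over WT (horizontal axis) of each tested gene in the 5 lists, with the number of genes plotted in brackets. Filled points had an adjusted p under 0.05 and the bar is the list median, which is -0.29 for VEGF ligands and receptors and between -0.09 and 0.07 for the other lists.

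The 3 VEGF receptor tyrosine kinase genes fell. Of 9 further ligand and receptor genes, 8 were tested, 3 fell and 0 rose, and the median was -0.29. An unadjusted edgeR p under 0.05 was found for 5 of the 8. Kdr, the main signalling receptor of VEGF-A in endothelium, was at 25.8 and 27.5 CPM in the FGR libraries and 36.9 CPM in WT (edgeR adjusted p = 0.0124). Flt1, the decoy-like receptor, was at 9.95 and 9.01 CPM in the FGR libraries and 13.9 CPM in WT (adjusted p = 0.0390). Flt4, the receptor of VEGF-C, was at 1.12 CPM in each FGR library and 2.53 CPM in WT, 2.26-fold lower (adjusted p = 0.0183). None of the 3 was called under a stricter filter on low counts (adjusted p = 0.0531 for Kdr, 0.0844 for Flt1 and 0.0674 for Flt4). DESeq2 did not call Kdr or Flt1 (adjusted p = 0.0554 and 0.246) and gave no adjusted p for Flt4. The co-receptor gene Nrp2, the most abundant per kilobase, was at 140 and 127 CPM in the FGR libraries and 152 CPM in WT (adjusted p = 0.196). Vegfd, which was not tested, had 0 and 5 counts in the FGR libraries and 9 in WT. Of 8 endothelial markers 1 fell, Cldn5, and none was at 0. The median log2 fold change of these 8 was -0.28, near that of the VEGF list. Both FGR libraries lay below WT for 7 of the 8 and above it for 1. The Cldn5 call was lost under a stricter filter, in DESeq2 and in limma-voom (adjusted p = 0.0936, 0.301 and 0.0611). Their summed level was 139 and 140 CPM in the FGR libraries and 156 CPM in WT, and their part in the lower receptors was not tested.

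In the mitophagy list, 1 of 12 genes rose and 1 fell, with a median of 0.07. An unadjusted edgeR p under 0.05 was found for 5 of the 12. Bcl2l1, which encodes the survival protein BCL-XL that binds BNIP3, was at 58.0 and 57.6 CPM in the FGR libraries and 47.8 CPM in WT (edgeR adjusted p = 0.0368). Its call was lost in DESeq2, in limma-voom, under a stricter filter and with libraries scaled by their totals (adjusted p = 0.350, 0.0671, 0.0807 and 0.0641). Map1lc3a, an LC3 protein of the autophagosome membrane, was at 77.3 and 76.0 CPM in the FGR libraries and 96.7 CPM in WT (adjusted p = 0.00847), a call lost in DESeq2 (adjusted p = 0.0616). Per kilobase, Sqstm1, a cargo receptor of autophagy, was highest of the list in both FGR libraries, at 69.3 and 66.7 CPM per kilobase against 65.4 and 64.4 for Map1lc3a, and Map1lc3a was highest in WT, at 81.9 against 65.0 for Sqstm1.

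Blood and vessel-wall markers also differed between the groups. Of 5 erythroid genes with at least 10 counts in each group, 4 rose and 0 fell, including Hba-a1 and Hba-a2, near-identical copies whose reads the counting may have split. A further called gene, Slc4a1, had 27 and 33 counts in the FGR libraries and 2 in WT, so it passed the filter only through the FGR libraries. The sum over the list was 308 and 339 CPM in the FGR libraries and 210 CPM in WT. Of 8 mural genes 3 fell, with Vtn and Rgs5 first by p (2 were called in DESeq2 and under a stricter filter), and the sum was 204 and 216 CPM in the FGR libraries and 287 CPM in WT. Of 8 fibroblast and meninges genes 6 fell, with Col3a1 and Col1a2 first by p, and the sum was 297 and 404 CPM in the FGR libraries and 589 CPM in WT. These calls dropped to 2 under a stricter filter, 1 in DESeq2 and 1 with robust dispersion. Col3a1 and Col1a2 were not called in DESeq2 (adjusted p = 0.384 and 0.676) or with robust dispersion (0.559 and 0.653), and Col1a2 was not called under the stricter filter (0.0946). Of 8 microglia and macrophage genes 3 fell, with Mrc1 and Csf1r among them, and the sum was 83.6 and 98.7 CPM in the FGR libraries and 135 CPM in WT. None of the 8 was called in DESeq2 or under a stricter filter, where 4 and 5 had an unadjusted p under 0.05, and Mrc1 was not called with robust dispersion either (adjusted p = 0.465). No measured gene of these lists was at 0 in any library. The part of these cell types in the levels of the 10 genes was not tested.

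**Figure D5:**
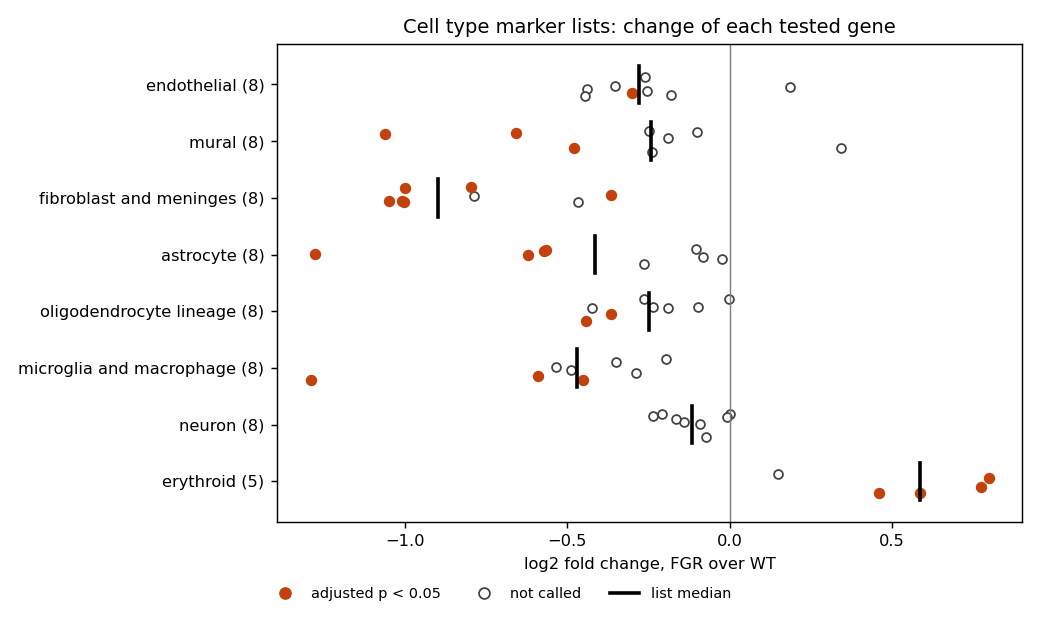
Log2 fold change of FGR over WT (horizontal axis) of cell type marker genes with at least 10 counts in each group, with their number in brackets. Filled points had an adjusted p under 0.05 and the bar is the median of the plotted genes, from -0.90 for fibroblast and meninges genes to 0.59 for erythroid genes.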

How the data were processed

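Reads were aligned with HISAT2, per the submitters' processing notes. No source used here names its version, the genome build, the annotation or the counter. The authors deposited raw read counts per gene, gene lengths and an RPKM value. This RPKM matched count, length and library total (largest deviation 0.0005%) and was not needed further. The members and lists were chosen with earlier results of these data known.

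The main test was edgeR's two-sided quasi-likelihood test (edgeR 4.0.16, R 4.3.3) of FGR (n = 2) against WT (n = 1). Genes passed filterByExpr at a minimum count of 10, libraries were scaled by TMM, and p-values were adjusted by Benjamini-Hochberg over 25561 genes. The fit had 1 residual degree of freedom. SE was obtained as log2 fold change over the root of the F statistic. The labels do not tie the FGR libraries to different animals, so p-values reflect the spread of these samples, which may be technical. The alternatives were DESeq2 1.42.0, limma-voom (limma 3.58.1), robust dispersion, 2 other scalings, 2 other filters, leaving out abundant RNA genes, and leaving out each FGR library. CPM per kilobase uses the listed lengths. The tests were tried on simulated data. From pathway lists the text names up to 4 called genes per direction and the most abundant gene, and from marker lists up to 2 called genes or the most abundant.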

Additional observations from a re-analysis of the deposited data

How the results depend on the processing

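Vegfa was called lower under each of the 8 alternatives with a test, with log2 fold changes from -0.61 to -0.57, and from -0.58 to -0.57 without either FGR library, where no test is possible. Without a filter on low counts 2 of the 10 genes were called, Hif3a being the second. The sign of Bnip3, never called, turned with libraries scaled by their totals (-0.034), with no filter (-0.0099), a stricter filter (-0.0018) and without abundant RNA genes (-0.0047). Gapdh turned likewise (-0.0393, -0.0150, -0.0067 and -0.0097), and with DESeq2 size factors (-0.0037), the DESeq2 test (-0.0038) and limma-voom (-0.00014).

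Over all genes, 1087 were called (424 higher, 663 lower), against 2057 without a filter (695, 1362), 339 under a stricter filter (115, 224) and 357 in DESeq2 (124, 233). Scaling by totals called 1027 lower and 332 higher, so that 24.4% of calls were higher, against 39.0%. Of the other HIF targets, 4 were called without a filter, 1 under a stricter filter and 1 in DESeq2, against 2. Of the VEGF list, 0 were called under a stricter filter and 0 in DESeq2, against 3. Of the mitophagy list, 1 was called with totals, 1 under a stricter filter, 1 in limma-voom and 0 in DESeq2, against 2. The cause was not tested. No paired analysis was possible because there was 1 WT library and the labels give no pairing. Depth limits Hif3a and Egln3 most, with 125 to 216 counts a library.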
